A study of Mus musculus with 6 samples.

Results

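A mouse induced pluripotent stem (iPS) cell line was compared with mouse embryonic stem (ES) cells across all genes detected on Illumina bead arrays. The comparison rests on 4 of the 6 arrays of the study, 2 of the iPS line and 2 of ES cells. The other 2 arrays, of an iPS clone that the labels call cl2.5 and mark as low (low iPS here), entered the background correction, the normalisation and the estimate of spread, and their values are given beside the results. Genes were included if 2 or more of the 6 arrays detected a probe for them (detection p under 0.05), which left 12631 genes. The iPS line, named O2ACH in the sample titles, and the low iPS clone both carry PB-Oct4.2A.cherry. By its name this construct holds Oct4 and cherry, a red fluorescent protein, with 2A between them. Both lines bear a -/- mark whose gene the labels leave unnamed. No construct and no such mark is given for the ES cells. All 3 lines have the B6 strain background. They were grown in serum replacement medium with LIF, 3 µM CHIR99021 and 1 µM PD0325901. Each kind of cell was a single line, so a difference between the iPS line and ES cells is a difference between those lines, and the arrays do not measure how far lines of a kind differ.

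Induced pluripotent stem cells are body cells brought back to an embryo-like state by forced expression of a few transcription factors, Oct4 among them. ES cells are taken from the inner cell mass of the blastocyst. CHIR99021 blocks the kinase GSK3 and PD0325901 blocks the kinase MEK, and with the cytokine LIF they hold mouse cells in the naive state, in which Nanog, Esrrb, Klf4 and their partners are expressed and genes of the body's lineages are mostly silent. Oct4, the product of Pou5f1, is needed for this state, and a shift in its level in either direction is known to let cells leave it.

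The pluripotency genes that should mark both kinds of cell were present in both. The deposited intensities of the 16 tested genes of core pluripotency summed to 45306 and 39441 on the iPS arrays and to 45362 and 40494 on the ES arrays. An array detected 35.9% to 37.5% of the 45281 probes. Across genes, which are not independent replicates, the arrays of a line correlated at r = 0.983 for iPS and 0.981 for ES. An iPS array and an ES array correlated at 0.956 to 0.981, so the closest such pair was as alike as the ES arrays. Markers of other cells that a culture could hold were partly detected. Of 17 fibroblast and feeder genes 9 were tested, summing to 2246 and 2377 on the iPS arrays and 2618 and 3075 on the ES arrays, and Col1a1, Col3a1, Dcn and Postn were not detected on 2 arrays. Of 15 blood cell genes on the array 5 were tested, summing to 1333 and 2015 in iPS and 2454 and 2014 in ES, and Ptprc, the pan-leukocyte antigen CD45, was not detected on 2 arrays. RNA came from whole cultures, so fewer cells that express a gene and less RNA of it per cell cannot be told apart.

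Changes below are iPS minus ES on the log2 scale, each with its SE, from limma on 2 arrays a line. A gene was called higher or lower at an adjusted p under 0.05 over all 12631 genes. Levels are normalised log2 intensities, array by array, replicate 1 before replicate 2. They compare a gene between lines and not genes with each other. Where neither array of a line detected the gene, its level there is only a bound and the fold is given as at least N-fold. A fitted log2 change printed for such a gene is measured against those undetected levels and is not a bound.

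In iPS, 54 genes (0.428% of those tested) were higher and 48 (0.38%) lower than in ES, 102 in all (0.808%). Counts of called members of gene lists below are to be read beside these shares. The lists were chosen with earlier results of these data known. The median change of all genes was -0.0026 and the median size of a change 0.212, whereas the called genes changed by at least 1.09 on the log2 scale, with a median size of 1.91. Of these, 49 changed by over 4-fold and 14 by over 8-fold. All were among 485 genes with a change over 1, and at an unadjusted p under 0.05 the counts were 835 higher and 951 lower. The iPS and ES arrays did not overlap for 42.2% of genes (20.9% with iPS higher, 21.3% with iPS lower), so with 2 arrays a line a lack of overlap says little by itself.

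**Figure D1:**
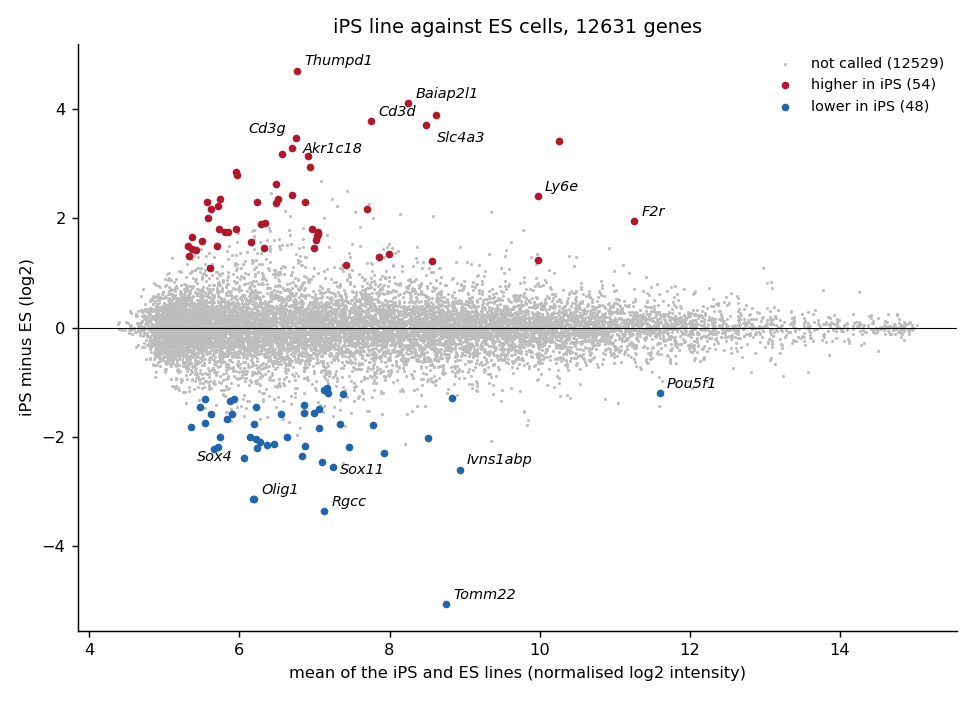
Change between the iPS line and ES cells (iPS minus ES, log2) of each of the 12631 genes against its mean normalised log2 intensity in the 2 lines. Red points are the 54 genes called higher and blue points the 48 called lower, from -5.07 for Tomm22 to 4.71 for Thumpd1.

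The counts depended on single arrays. Without iPS replicate 1, 9 genes were higher and 5 lower, and without ES replicate 2 the counts were 16 and 7. They were 39 and 28 without iPS replicate 2 and 135 and 95 without ES replicate 1. Leaving out a low iPS array gave 26 and 18 without replicate 1 and 26 and 19 without replicate 2, and the 4 iPS and ES arrays alone gave 26 and 18. The calls that held without each of the 6 arrays in turn were 12: Thumpd1, Baiap2l1, Slc4a3, Pnpla3, Aqr, Adamts9, 1190007I07Rik and Gm5292 were higher, and Tomm22, Olig1, Ubd and Mmp14 lower. The other 90 were lost at least once, so for them the change and its SE are a firmer description than the call. No called gene turned its direction in any of the alternatives run gene by gene. When an array was left out, the genes tested stayed those chosen with all 6 arrays. Olig1 and Ubd were detected on the 2 ES arrays alone, so without either array they would not have met the detection rule.

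**Figure D2:**
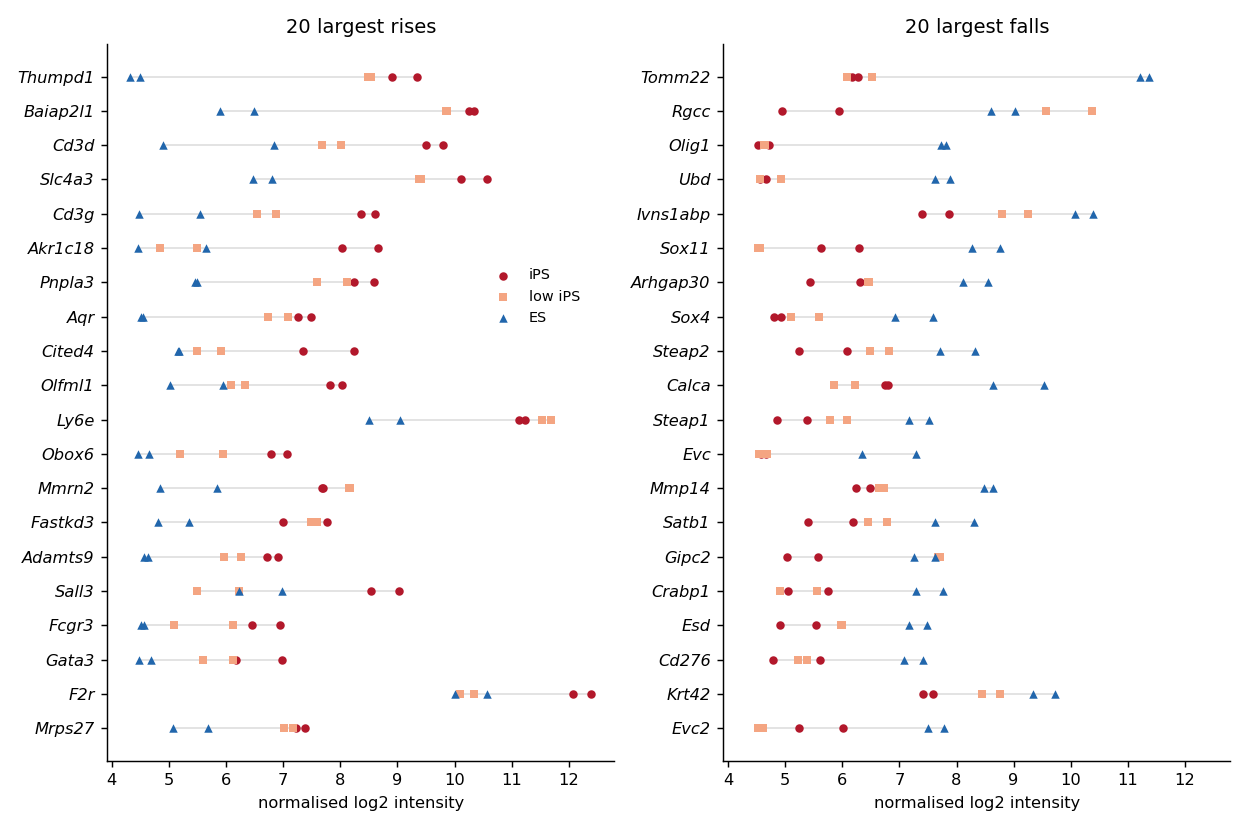
Normalised log2 intensity on each of the 6 arrays for the 20 largest rises (left) and the 20 largest falls (right) in iPS against ES among called genes with plain names; circles are iPS, squares low iPS and triangles ES arrays. The iPS and ES arrays do not overlap for any of these genes, which their selection required, while the low iPS arrays lie with iPS for Tomm22 and Olig1 and with ES for Akr1c18 and F2r.

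Thumpd1, whose product is an adaptor for the acetylation of transfer RNA, had the largest fitted change among the rises, measured against undetected levels in ES. Its level was 9.34 and 8.90 on the iPS arrays and 4.32 and 4.50 on the ES arrays, where it was not detected. It was at least 16.67-fold higher in iPS (change 4.71 ± 0.21, adjusted p = 0.000314). The low iPS arrays, at 8.54 and 8.49, were also high. Baiap2l1, an I-BAR protein that links the membrane to actin, was detected in every line, at 10.26 and 10.35 in iPS against 5.90 and 6.49 in ES. It rose by 4.11 ± 0.23 (17.27-fold, adjusted p = 0.000834). Mtss1, the other tested I-BAR gene, gave -0.06 ± 0.22.

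Slc4a3, an anion exchanger that moves chloride and bicarbonate across the membrane, rose by 3.71 ± 0.22 (13.05-fold, adjusted p = 0.00112). Its arrays read 10.57 and 10.12 in iPS, 9.41 and 9.37 in low iPS, and 6.47 and 6.80 in ES. All 4 of its detected probes were higher in iPS, by 4.23, 3.71, 2.68 and 0.64. Slc4a3 was the 1 of 7 tested bicarbonate transporter genes that passed, where 0.428% of all genes were called higher. The rest went both ways without passing: the electroneutral exchanger Slc4a2 gave 0.86 ± 0.28 and Slc4a5, a sodium bicarbonate cotransporter, 0.88 ± 0.18, while the cotransporters Slc4a4, Slc4a7 and Slc4a8 gave -0.62 ± 0.22, -0.75 ± 0.23 and -0.77 ± 0.24. The list had a median of -0.31, which was 0.0 with members undetected in a line set to their bound or, where none could be given, to no change. The iPS and ES arrays of all 7 members were apart, 3 with iPS higher and 4 with iPS lower. Over all genes 42.2% were apart, 20.9% with iPS higher and 21.3% with iPS lower. The median was -0.064 without iPS replicate 2 and -0.575 without iPS replicate 1.

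Akr1c18, which inactivates progesterone, was at 8.66 and 8.03 in iPS and at 5.65 and 4.46 in ES. It rose by 3.29 ± 0.43 (9.79-fold, adjusted p = 0.0225). Only 1 ES array detected it, and low iPS, at 5.50 and 4.84, was as low as ES. Of its family, 9 members were tested and Akr1c18 alone passed. Its close relative Akr1c12 gave 1.52 ± 0.48 and Akr1b8 1.03 ± 0.34 without passing, and the aldehyde reductase gene Akr1a1 gave -0.02 ± 0.21. Akr1c genes lie in a cluster and resemble each other, and how far these probes tell them apart was not tested. Pnpla3, a lipase of lipid droplets, was at 8.24 and 8.58 in iPS and at 5.49 and 5.46 in ES, a rise of 2.94 ± 0.23 (7.66-fold, adjusted p = 0.00463). Its relative Pnpla2, the main triglyceride lipase of fat cells, gave -0.43 ± 0.23. Pnpla3 was the 1 of 15 tested genes of lipid droplets and glycerolipids that passed, where 0.428% of all genes were called higher.

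Ly6e, a membrane-anchored member of the Ly6 family, rose by 2.40 ± 0.22 (adjusted p = 0.00886) from 8.50 and 9.04 in ES to 11.23 and 11.13 in iPS, and its second probe gave 2.35. F2r, the thrombin receptor, rose by 1.95 ± 0.25 to 12.39 and 12.07 from 10.56 and 10.005. Fcgr3, a receptor for immunoglobulin G, was at 6.94 and 6.46 in iPS and not detected in ES, and was at least 3.12-fold higher. The low iPS clone stood differently in these 3 genes (2.24% of all genes were called between low iPS and iPS): at 11.69 and 11.54 it was high for Ly6e, at 10.09 and 10.34 it was as low as ES for F2r, and at 5.09 and 6.12 it lay between for Fcgr3. The matrix protease gene Adamts9 was at least 3.38-fold higher on 1 probe while its other probe gave 0.06, and Mmrn2, a matrix protein of blood vessels, rose by 2.35 ± 0.31, detected on 1 ES array.

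Cited4, a cofactor that binds the coactivators CBP and p300, rose by 2.62 ± 0.31 (6.16-fold, adjusted p = 0.0167), with 8.24 and 7.36 in iPS against 5.18 and 5.17 in ES. Its relatives Cited1 and Cited2 gave 0.60 ± 0.18 and 0.16 ± 0.18 without passing, and none of the partners tested, Ep300, Tfap2a and Tfap2c, passed. Sall3, a zinc finger factor related to Sall4, rose by 2.18 ± 0.35, from 6.99 and 6.23 to 9.03 and 8.54. Obox6, an oocyte homeobox gene, was at least 3.63-fold higher, with 6.78 and 7.06 in iPS and no detection in ES. Mitochondrial Mrps27, a ribosomal protein of that organelle, and Fastkd3, which acts on mitochondrial RNA, rose by 1.92 ± 0.24 and 2.29 ± 0.30. Olfml1, of the olfactomedin domain family, rose by 2.43 ± 0.30.

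The 3 CD3 genes rose together. They encode the gamma, delta and epsilon chains that carry the signal of the T cell receptor, and they lie side by side on chromosome 9 with no other protein-coding gene between them. Cd3d was at 9.80 and 9.50 in iPS and at 6.84 and 4.89 in ES, a rise of 3.79 ± 0.55 (13.81-fold, adjusted p = 0.0357). Cd3g was at 8.61 and 8.37 against 5.55 and 4.47, a rise of 3.47 ± 0.35 (11.11-fold, adjusted p = 0.00987). Cd3e was at 8.01 and 7.72 against 6.18 and 5.94, a rise of 1.81 ± 0.19 (3.50-fold, adjusted p = 0.0129), and its second probe gave 1.32. All iPS arrays lay above all ES arrays, and ES replicate 2 was the lower ES array for each gene and did not detect Cd3d or Cd3g. The low iPS arrays lay between, at 8.004 and 7.68 for Cd3d, 6.88 and 6.54 for Cd3g and 6.88 and 6.87 for Cd3e. With each array left out in turn the adjusted p ranged from 0.00166 to 0.207 for Cd3d, from 0.00301 to 0.0833 for Cd3g and from 0.0189 to 0.0929 for Cd3e.

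The other tested genes of the T cell list were not called. The CD3 genes were 3 of 6 tested members, while 0.428% of all genes were called higher. Of 19 T cell genes on the array 6 were tested, and besides the 3 CD3 genes these were Zap70 and Lck, kinases of the receptor, and Cd8b1, a chain of the coreceptor CD8. They gave -0.43 ± 0.28, -0.30 ± 0.24 and -0.0050 ± 0.18, and none passed. Cd247, which encodes the zeta chain of the receptor, and Cd4, Cd8a, Ptprc, Trac, Rag1 and Il7r were among the 13 that no 2 arrays detected. The summed intensity of the 6 tested genes was 3113 and 3353 in iPS, 3124 and 2796 in low iPS, and 2414 and 2261 in ES.

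The promoter windows of Cd3g and Cd3d are shown because both genes rose and start 1355 bases apart on opposite strands, each reading away from the other. Each window runs from 250 bases before the gene's start to 50 bases within it, from RefSeq on GRCm38.p6, written 5′ to 3′ on the gene's own strand. Capitals mark matches on either strand to 3 motifs. The GC box is GGGCGG. The CCAAT box is the word CCAAT itself. The TATA box is TATAAA. Cd3g lies at chr9:44980382-44980681 on the minus strand and Cd3d at chr9:44981536-44981835 on the plus strand.
Cd3g: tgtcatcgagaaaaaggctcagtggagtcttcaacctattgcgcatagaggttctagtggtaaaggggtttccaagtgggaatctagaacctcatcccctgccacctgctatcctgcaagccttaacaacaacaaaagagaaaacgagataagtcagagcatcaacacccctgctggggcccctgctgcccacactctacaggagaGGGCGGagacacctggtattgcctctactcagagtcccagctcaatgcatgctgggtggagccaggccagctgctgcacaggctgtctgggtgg
Cd3d: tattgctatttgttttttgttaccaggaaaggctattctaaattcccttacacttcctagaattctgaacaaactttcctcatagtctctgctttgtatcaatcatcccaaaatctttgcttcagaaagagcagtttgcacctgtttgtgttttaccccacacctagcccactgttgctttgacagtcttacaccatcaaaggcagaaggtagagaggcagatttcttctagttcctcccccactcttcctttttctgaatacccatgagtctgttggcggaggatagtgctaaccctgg
The Cd3g window has 1 GC box and neither of the other motifs, and the Cd3d window has none of the 3. Over 32851 promoter windows of this length, 35.7% held a GC box, 37.4% a CCAAT box and 13.6% a TATA box. The octamer ATGCAAAT, which Oct factors can bind, was in neither window and in 1.74% of all windows. GC content was 54.0% for Cd3g and 42.3% for Cd3d.

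Among the genes lower in iPS were 3 transcription factors of the nervous system. Olig1, a factor of the oligodendrocyte lineage, was at 7.82 and 7.72 in ES and not detected in iPS, where it read 4.72 and 4.53. It was at least 6.35-fold lower (change -3.15 ± 0.17, adjusted p = 0.000834). Sox11, a SoxC factor of new neurons, fell by 2.55 ± 0.27 (5.85-fold, adjusted p = 0.0129), from 8.27 and 8.76 to 6.30 and 5.63, and its second probe gave -1.12 without passing. Sox4, the second SoxC factor, was at 6.93 and 7.59 in ES and not detected in iPS, at least 4.45-fold lower (adjusted p = 0.0167). The ES arrays were the high ones for each gene, and low iPS was low as well, at 4.64 and 4.63 for Olig1, 4.53 and 4.57 for Sox11 and 5.10 and 5.59 for Sox4.

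These 3 were of 6 tested members of the SoxC and neural list, which had a median of -1.66 against -0.0026 for all genes. Of all genes, 0.38% were called lower. With Olig1 and Sox4 at their bounds the list's median was -1.54. Olig1 passed the detection filter through the ES arrays alone, where it was high, so its part in the count and the median was set by that filter. Without background correction the list's median was -0.829, and with an offset of 50 it was -1.08. Sox12, the third SoxC factor, gave -0.36 ± 0.18, the intermediate filament gene Nes -0.93 ± 0.41 and the microtubule gene Map2 -0.47 ± 0.27, with no call. All 6 had both iPS arrays below both ES arrays, as had 21.3% of all genes. The other 12 members were not detected on 2 arrays, among them Sox1, Pax6, Neurod1, Tubb3 and Dcx. Left-out arrays gave Olig1 an adjusted p from 0.00439 to 0.0116, Sox11 one from 0.0142 to 0.0582 and Sox4 one from 0.0106 to 0.108.

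Evc and Evc2 fell together. Their products form a complex at the base of the cilium that passes on the Hedgehog signal. Evc was at 6.35 and 7.29 in ES and not detected in iPS, at least 3.28-fold lower (change -2.20 ± 0.30, adjusted p = 0.0287). Evc2 was at 7.498 and 7.78 in ES and at 5.24 and 6.01 in iPS, and fell by 2.01 ± 0.27 (4.03-fold, adjusted p = 0.0271). Neither was detected in low iPS. Evc passed the detection filter through the ES arrays alone, where it was high, so its part in the pair was set by that filter. The iPS arrays lay below the ES arrays for both genes. With 1 array left out the adjusted p reached 0.157 for Evc and 0.139 for Evc2.

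Their promoter windows are shown because the pair is arranged like the CD3 pair: the starts lie 1597 bases apart on chromosome 5, on opposite strands and reading away from each other. Capitals mark the same 3 motifs. Evc lies at chr5:37336832-37337131 on the minus strand and Evc2 at chr5:37338228-37338527 on the plus strand.
Evc: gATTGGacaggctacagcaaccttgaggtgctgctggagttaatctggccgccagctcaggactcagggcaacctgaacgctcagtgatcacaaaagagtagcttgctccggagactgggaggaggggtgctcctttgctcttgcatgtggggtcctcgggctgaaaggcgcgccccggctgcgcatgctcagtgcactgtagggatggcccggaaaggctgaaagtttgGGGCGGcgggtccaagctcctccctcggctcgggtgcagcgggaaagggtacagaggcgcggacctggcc
Evc2: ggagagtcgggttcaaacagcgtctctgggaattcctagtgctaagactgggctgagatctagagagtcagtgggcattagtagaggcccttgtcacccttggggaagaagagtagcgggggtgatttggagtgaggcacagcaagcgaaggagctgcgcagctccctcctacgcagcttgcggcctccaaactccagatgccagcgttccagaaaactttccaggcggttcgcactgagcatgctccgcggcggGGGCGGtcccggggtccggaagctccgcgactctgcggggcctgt
Both windows hold 1 GC box, that of Evc also holds 1 CCAAT box on the opposite strand, and neither holds a TATA box or the octamer. Their GC content was 62.7% and 61.0%, against a median of 52.7% over all windows.

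The CD3 and Evc genes were not the only called neighbours. Of the 93 called genes that could be placed in the order of protein-coding genes, 5 pairs had no such gene between them, and both genes of each pair changed the same way. The remaining pairs were Steap2 and Steap1 on chromosome 5 and F2r and Iqgap2 on chromosome 13. Steap2, a metalloreductase that reduces iron and copper, fell by 2.35 ± 0.33 (5.11-fold, adjusted p = 0.0302), from 7.71 and 8.32 in ES to 5.25 and 6.08 in iPS. Steap1, of the same family, fell by 2.21 ± 0.24 (4.64-fold, adjusted p = 0.0152), from 7.16 and 7.51 to 4.87 and 5.38. Both were 2 of 12 tested genes of the Steap and iron list, and the others lay between -0.28 and 0.42: Steap3 and Steap4 gave 0.00 ± 0.27 and 0.03 ± 0.20, and the transferrin receptor gene Tfrc -0.14 ± 0.22. Iqgap2, a scaffold of the actin skeleton, rose by 1.14 ± 0.17 beside F2r, and its second probe gave 0.24. Iqgap2 lost its call whichever array was left out (adjusted p from 0.0516 to 0.217).

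Pou5f1 was lower in iPS on both of its probes, with a change of -1.201 ± 0.17 (adjusted p = 0.0302) on the first and -1.42 on the second. Both iPS lines carry an Oct4 construct, and none is given for the ES cells. Whether these probes also read RNA of the construct was not tested, so the signal cannot be assigned to the gene's own locus. On the first probe the levels were 10.96 and 11.03 in iPS, 12.18 and 12.21 in ES, and 8.97 and 8.87 in low iPS, so the 3 lines formed 3 separate steps. Without single arrays its adjusted p lay between 0.0497 and 0.188. Cchcr1, a coiled-coil protein gene near Pou5f1 on chromosome 17 with 1 protein-coding gene between them, went the other way, by 1.22 ± 0.19, and lost its call when any of the 6 arrays was left out (adjusted p from 0.0717 to 0.241).

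The other pluripotency genes stayed within smaller margins. Of 16 tested core pluripotency genes Pou5f1 alone passed, and the list was split evenly, with 8 changes positive and 8 negative. Sox2, the partner of Oct4, gave 0.67 ± 0.19 and Tdgf1, a coreceptor for Nodal, -0.66 ± 0.28, both without passing. The second detected probe of Sox2 gave -0.37. Of 12 tested naive genes none passed, and 11 changes were positive, with a median of 0.31. The largest were those of Tbx3 (0.64 ± 0.28), Tfcp2l1 (0.54 ± 0.28) and Klf2 (0.47 ± 0.23), all factors of the naive network. ES replicate 2 was the lowest of the 4 arrays for these 3 genes, at 8.67, 11.95 and 11.25, and without it the median of the list was 0.066. It was 0.168 without iPS replicate 2 and 0.509 without ES replicate 1. Lin28a, which blocks the let-7 microRNAs, gave -0.39 ± 0.28.

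Genes of lineages next to the naive state gave few calls. Gata3, a factor of trophectoderm, was the 1 of 13 tested genes of its list that passed, at 6.99 and 6.18 in iPS, not detected in ES and at least 2.87-fold higher (adjusted p = 0.0402). Tfap2a and Cdx2 of the same list gave 1.16 ± 0.20 and 1.00 ± 0.36, and the cadherin gene Cdh3 -1.55 ± 0.26 (adjusted p = 0.0556), without passing. Sox4 was also the 1 of 8 formative and primed epiblast genes that passed. In that list Grhl2, an epithelial factor, gave 2.68 ± 0.55 (adjusted p = 0.0952) with 8.63 and 8.22 in iPS against 6.71 and 4.77 in ES. Otx2 gave 0.17 ± 0.25. No gene passed of 10 extraembryonic endoderm genes, 4 primitive streak and mesoderm genes and 9 germline genes. Of the DNA methylation list none of 8 passed, with 4 changes positive and 4 negative. Tdg, which removes oxidised methylcytosine, and Tet1, which makes it, gave -0.77 ± 0.18 and -0.73 ± 0.18 (adjusted p = 0.131 and 0.135), while Tet2 gave 0.31 ± 0.29 and Dnmt3l, a cofactor of the methyltransferases, 0.72 ± 0.35.

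**Figure D3:**
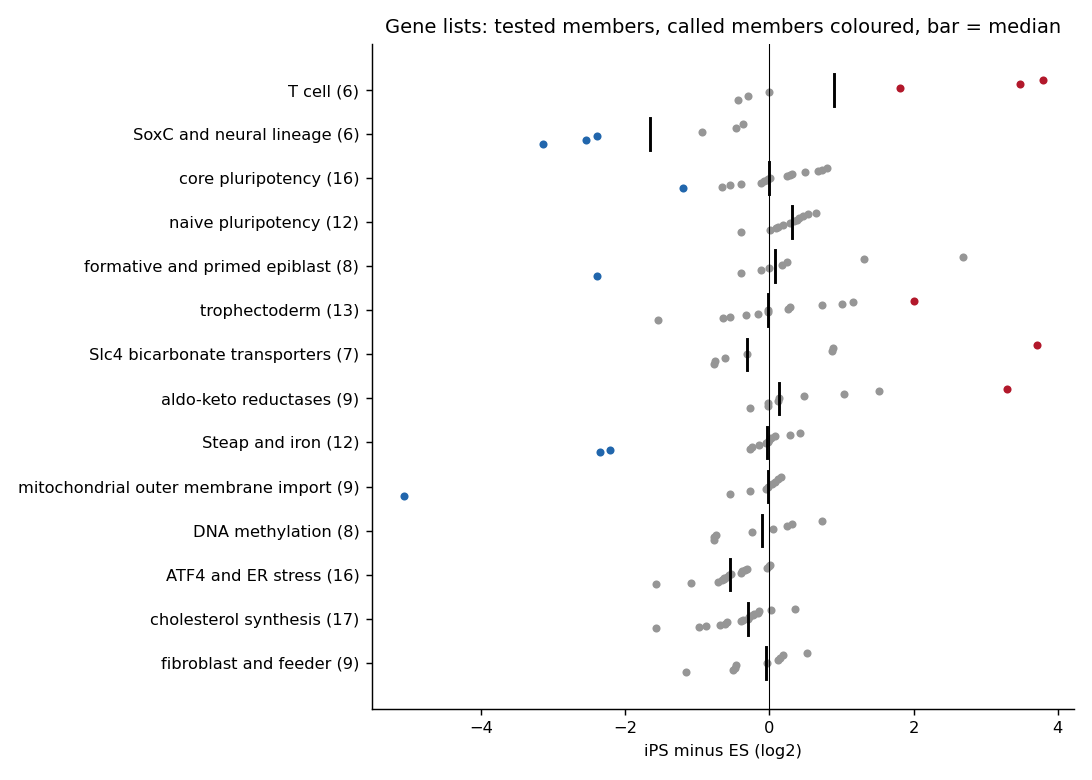
Change (iPS minus ES, log2) of each tested member of 14 gene lists, with the number tested in brackets; red and blue points are called higher and lower, grey points are not called, and black bars are list medians. The T cell list holds 3 called genes on the right, the SoxC and neural list 3 on the left, and 15 of 16 ATF4 and ER stress genes lie left of 0 with none called.

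In 2 more lists nearly all members leaned one way and none passed. Of 16 tested genes of ATF4 and the endoplasmic reticulum stress response, 15 were lower in iPS, with a median of -0.54. Vldlr, a lipoprotein receptor, gave -1.58 ± 0.54, Chac1, which breaks down glutathione, -1.09 ± 0.44, and Trib3, a pseudokinase that restrains ATF4, -0.66 ± 0.36. This rested on 1 array: iPS replicate 1 was the lowest of the 4 for each of these 3 genes, at 6.68, 9.01 and 8.55, and without it the median was -0.033. Without ES replicate 2 it was -0.352. Of 17 tested cholesterol synthesis genes 15 were lower, with a median of -0.29. Msmo1, a sterol oxidase, gave -0.98 ± 0.29 and Mvd, an enzyme of the mevalonate pathway, -0.88 ± 0.42. The median of this list was -0.698 without iPS replicate 2 and -0.682 without ES replicate 1, but -0.179 without iPS replicate 1 and -0.146 without ES replicate 2.

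Of the 37 lists, 22 had no called member. Among those with called members were the regulators of small GTPases (2 of 14), the interferon and antigen presentation genes (1 of 13), and the neuropeptides and hormones (1 of 6). Rgcc, a cell cycle regulator, fell by 3.37 ± 0.39 (10.34-fold, adjusted p = 0.0167), from 8.61 and 9.02 in ES to 4.95 and 5.94 in iPS. Arhgap30, which switches small GTPases off, fell by 2.46 ± 0.31, from 8.11 and 8.55 to 5.43 and 6.31. Ubd, a ubiquitin-like protein induced by interferon, was at 7.88 and 7.63 in ES and not detected in iPS, at least 6.27-fold lower (adjusted p = 0.00148). Ubd passed the detection filter through the ES arrays alone, where it was high, so its part in the count was set by that filter. Of the other genes of its list, Psmb9, a subunit of the immunoproteasome, gave -0.43 ± 0.29 and B2m, the light chain of MHC class I, 0.76 ± 0.25, without passing. Calca, the calcitonin gene, fell by 2.31 ± 0.30, and its other probes gave changes from -2.02 to -0.80.

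The remaining large falls were of diverse genes. Ivns1abp, a kelch-repeat protein, fell by 2.60 ± 0.25 (6.08-fold, adjusted p = 0.00962), from 10.08 and 10.39 to 7.40 and 7.87, and its other probes gave -2.39 and -2.34. Mmp14, a membrane-bound matrix protease, fell by 2.19 ± 0.18 (adjusted p = 0.00561), from 8.48 and 8.63 to 6.49 and 6.24. Satb1, which organises chromatin, fell by 2.17 ± 0.33. For all 3 genes low iPS lay below ES too, at 9.25 and 8.79, 6.65 and 6.74, and 6.45 and 6.79. Gipc2, a PDZ scaffold protein, fell by 2.15 ± 0.24, Crabp1, which binds retinoic acid in the cytoplasm, by 2.13 ± 0.33, Cd276, an immune checkpoint molecule, by 2.05 ± 0.29, and the keratin gene Krt42 by 2.03 ± 0.22 with other probes at -2.16 and -1.83.

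The following calls of germline genes and of other genes were picked after their values were seen. Stag3, a cohesin subunit of meiosis, fell by 1.30 ± 0.17, from 9.45 and 9.51 to 8.25 and 8.11. Nlrp14, expressed in oocytes and testis, fell by 1.59 ± 0.22, and Clgn, a chaperone of the testis, by 2.01 ± 0.30 with a second probe at -0.88. Asz1, of the germline list, gave -1.46 ± 0.45 without passing. It was the lowest of the 9 tested members of that list, of which 5 were positive and 4 negative, with a median of 0.033. Bach2, a repressor that acts in lymphocytes, was at 6.77 and 6.67 in iPS and not detected in ES or low iPS, at least 3.16-fold higher in iPS than in ES. Bach2 passed the detection filter through the iPS arrays alone, where it was high, so its place among the called genes was set by that filter. Rerg, a Ras-like protein, rose by 1.71 ± 0.20, from 6.31 and 6.07 in ES to 8.07 and 7.72 in iPS, and was not detected in low iPS. Cth, which makes cysteine from cystathionine, rose by 1.30 ± 0.20.

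Tomm22 showed the largest change of any gene, yet on 1 of its probes only. Its product is a receptor of the pore that takes proteins into mitochondria. The brighter probe was at 6.28 and 6.17 in iPS, 6.53 and 6.08 in low iPS, and 11.37 and 11.22 in ES, a fall of 5.07 ± 0.21 (33.59-fold, adjusted p = 0.000314). The second detected probe was at 5.71 and 5.55 in iPS and at 5.74 and 4.85 in ES, a change of 0.34. None of the other 8 tested genes of import through the outer membrane passed. Tomm70a gave -0.55 ± 0.22 and the pore gene Tomm40 0.08 ± 0.20.

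Tomm22 was 1 of 18 genes, of 3900 with more than 1 detected probe, in which a probe passed when each was tested by itself and another probe differed from it by over 1.5 on the log2 scale. These genes were picked after their values were seen. Atf4, the stress-response factor, had a bright probe at 11.35 and 11.72 in iPS and 12.11 and 12.02 in ES, a change of -0.53. Its other probe fell by 4.40 ± 0.22, from 10.92 and 11.33 in ES to 6.54 and 6.92 in iPS. For Arl3, a small GTPase of cilia, the probes gave -3.24 and -0.21, and for Supt16, a subunit of the histone chaperone FACT, -3.20 and -0.39. In Aqr, a splicing helicase, 1 probe was not detected in ES and read 7.49 and 7.27 in iPS, at least 4.99-fold higher, while the other gave -0.29. Of the called genes 22 had another detected probe. In 6 of these it had the opposite sign: Aqr, Esd, Tmem87a, Tomm22, Tubgcp4 and Zfp367. Only that of Tmem87a was clearly above background, at 7.88 and 7.84 in iPS and 8.88 and 8.84 in ES. The opposing probes of the rest read at most 6.41 on any array, near the lowest detected signals of 5.04 to 5.12. Such dim probes can show little of a change. The remaining called genes rested on 1 detected probe, so no second probe could contradict them.

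Of these 18 genes, 9 lay in 3 stretches of chromosome, picked after their values were seen. Aqr, Rmdn3, Tmem87a and Tubgcp4 lie in a stretch of chromosome 2 with 82 protein-coding genes between the first and the last, where 4 of 21 genes with more than 1 detected probe were of this kind. Parp2, Supt16 and 1700123O20Rik lie in a stretch of chromosome 14 with 72 such genes between its ends, where it was 3 of 12. Tomm22 and Atf4 are 15 genes apart on chromosome 15, where it was 2 of 6. On chromosome 2 the passing probes were higher in iPS, at least 4.99-fold for Aqr and at least 2.36-fold for Tubgcp4, and by 2.33 for Rmdn3 and 1.25 for Tmem87a on the log2 scale. On chromosomes 14 and 15 they were lower. The low iPS arrays read like the iPS arrays on them: 6.73 and 7.08 for Aqr, 8.29 and 8.55 for Rmdn3 against 8.08 and 8.06 in iPS and 5.81 and 5.67 in ES, and 7.27 and 7.15 for Atf4. Probe sequences were not used here, and whether such a change is one of the gene's RNA or of the stretch the probe reads was not tested.

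**Figure D4:**
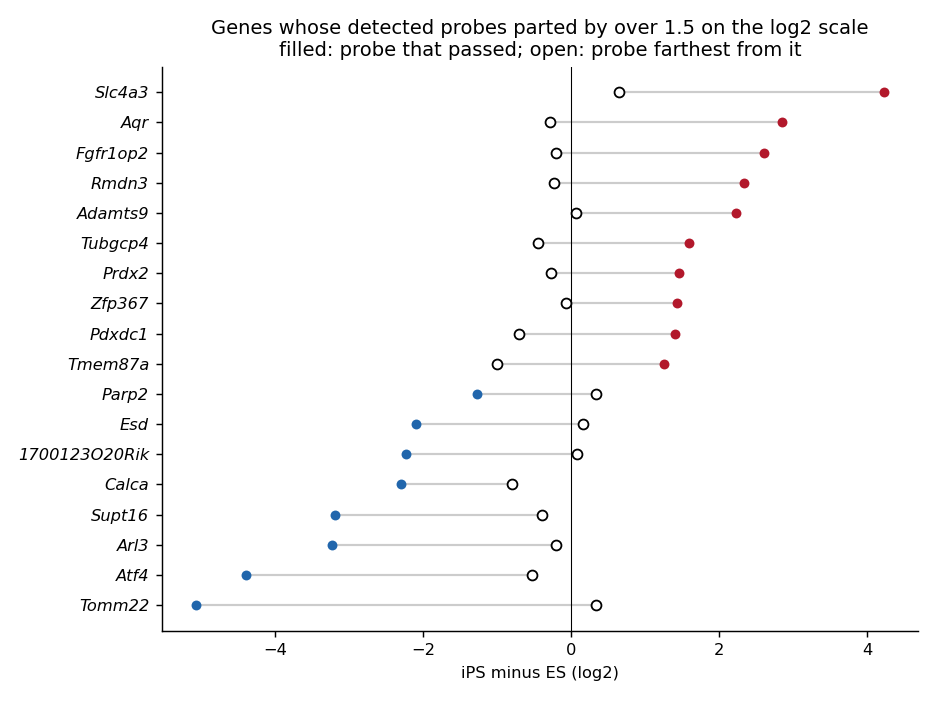
Change (iPS minus ES, log2) by probe in the 18 genes whose detected probes lay over 1.5 apart; filled points are the probe that passed (red higher, blue lower in iPS) and open points the detected probe farthest from it. For Tomm22 the probes gave -5.07 and 0.34, for Atf4 -4.40 and -0.53, and for Aqr 2.85 and -0.29.

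Beneath the single calls, the genes of 3 chromosomes were shifted as a whole. The median change was -0.285 over 431 tested genes of chromosome 6, with 76.6% of them negative, and -0.318 over 486 genes of chromosome 8, with 82.1% negative. For 319 genes of chromosome X it was 0.307, with 79.6% positive. The medians of the other 17 autosomes lay between -0.029 and 0.048. Calls there were few: chromosome 6 had 2 higher and 1 lower, chromosome 8 none and 3, and chromosome X none of either.

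The arrays behind these shifts were not the same. Taking each gene's deviation from its mean over the 6 arrays, the median for chromosome 6 was -0.117 and -0.0999 in iPS, -0.0997 and -0.110 in low iPS, and 0.0964 and 0.272 in ES. For chromosome 8 it was -0.156 and -0.159 in iPS, 0.0078 and -0.0025 in low iPS, and 0.0986 and 0.214 in ES. For chromosome X it was 0.347 and 0.154 in iPS, -0.190 and -0.181 in low iPS, and 0.0076 and -0.110 in ES. On chromosome 6 ES replicate 2 was the array farthest out. Without ES replicate 1 the median of chromosome 6 was -0.398, and without ES replicate 2 it was -0.206. For chromosome 8 these values were -0.360 and -0.243. The median of chromosome X was 0.204 without iPS replicate 1 and 0.385 without iPS replicate 2.

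**Figure D5:**
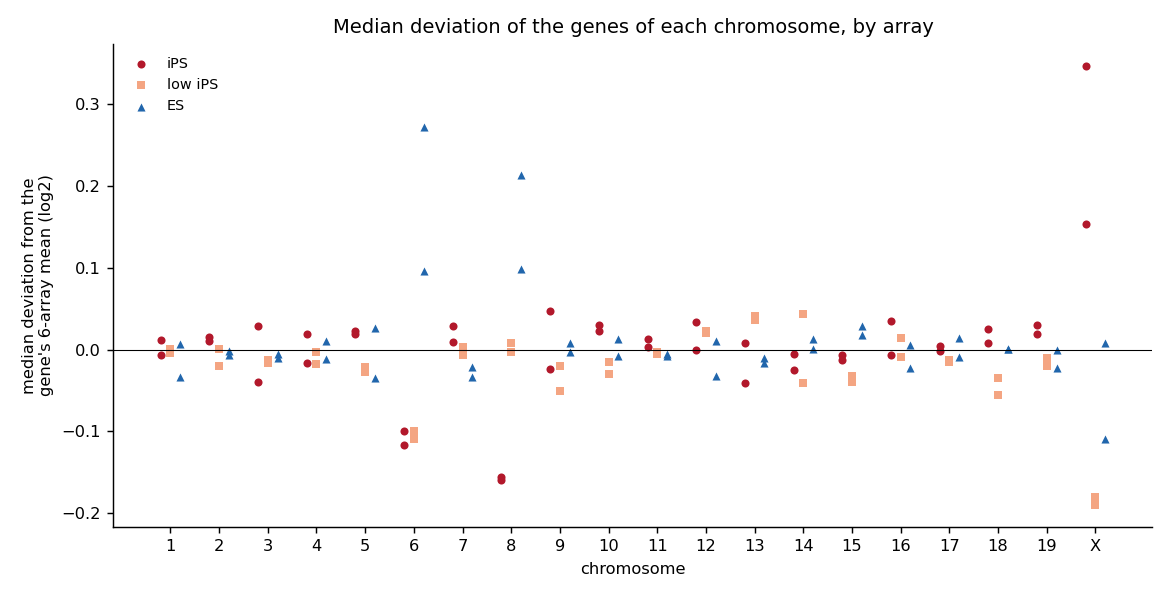
Median, over the tested genes of each chromosome, of a gene's deviation from its mean over the 6 arrays (log2), for each iPS (circles), low iPS (squares) and ES (triangles) array. Both ES arrays lie above the iPS arrays on chromosomes 6 and 8, and both iPS arrays lie above all others on chromosome X.

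Markers of the sex chromosomes gave no call. Xist, the RNA that silences an X chromosome, was not detected on 2 arrays, and Ddx3y, on the Y chromosome, was at 7.37 and 7.32 in iPS and at 7.37 and 6.56 in ES. Kdm6a and Eif2s3x, genes of the X chromosome that escape silencing, gave 0.38 ± 0.27 and 0.39 ± 0.22 without passing. What moved the genes of a chromosome together was not tested.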

How the data were processed

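Illumina bead arrays measured RNA from 3 lines, 2 samples each. The deposited table holds 45281 probes with an average intensity and a detection p-value per array, per the file headers, neither background-subtracted nor normalised. A second table holds the authors' values on a log2 scale, deposited with probe IDs that could not be named, and it was used for counts only. Its median was 8.05 on each array. How it was scaled is not given in the sources used here, and its direction was taken from its columns.

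Probe names were brought to current symbols through a RefSeq table of GRCm38.p6: 27760 by symbol and 7994 by synonym, with 9527 left as deposited. The nec function of limma 3.58.1 (R 4.3.3) corrected the background with an offset of 16, followed by log2 and quantile normalisation. The 18175 probes detected on 2 or more arrays (p under 0.05) were kept, and the brightest stood for its gene. The offset shrinks changes of dim genes. A mean per line was fitted (lmFit, eBayes), leaving 3 residual degrees of freedom beside 4.27 of the prior, with p-values adjusted by Benjamini-Hochberg over all genes. P-values rest on how far samples of the same line differ. The series calls these biological replicates. For a bound, each array of the dim line took its lowest detected signal, or the gene's own where that was higher.

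The members and the 37 lists were chosen with earlier results of these data known. Genes were named by a rule: the 20 largest rises and falls with plain names, without overlap and with both arrays of the brighter line detecting them, the 6 members of each list with the smallest p, all members of short lists, called list members, set pluripotency and sex chromosome genes, relatives of named genes, the 10 smallest p in each direction, and genes whose probes disagreed in sign. Others are said to be picked afterwards. Chromosomes are those of the deposited table, and gene order is that of RefSeq. The procedure was tested on simulated data, where 19.6% of planted log2 changes of 1 were recovered, 92.5% of those of 2 and 98% of those of 3. A gene that did not pass may thus still have changed by about 1 on the log2 scale. The simulated errors were independent between arrays and had no detection limit. In the real data same-numbered iPS and ES arrays deviated together (r = 0.323), so the recovered shares may differ there. The number of arrays limits the precision.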

Additional observations from a re-analysis of the deposited data

Results flagged for a closer look

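Among the largest changes and the pluripotency factors followed here, 9 genes that passed between iPS and ES also differed between the 2 iPS lines in the limma fit, so that the low iPS clone did not stand where the iPS line stood. The values are low iPS minus iPS on the log2 scale. Over all genes 2.24% were called between the 2 iPS lines. That comparison shares the iPS arrays with iPS against ES, so a gene called in both is not an independent result of each. Rgcc was 4.521 higher in low iPS (adjusted p = 0.00416), with means of 5.445 in iPS, 9.966 in low iPS and 8.815 in ES. Gipc2 was higher by 2.401 (adjusted p = 0.00715) and Ivns1abp by 1.387 (adjusted p = 0.0423). In these 3 genes the iPS line was the lowest of the 3 lines.

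The other 6 fell in low iPS. Akr1c18 gave -3.181 (adjusted p = 0.0175), Sall3 -2.927 (adjusted p = 0.0122) and Cited4 -2.104 (adjusted p = 0.0225). F2r gave -2.016 (adjusted p = 0.0137), with means of 12.23 in iPS, 10.21 in low iPS and 10.28 in ES, and Olfml1 gave -1.71 (adjusted p = 0.0398). In these 5 genes the iPS line was the highest. Pou5f1 gave -2.073 (adjusted p = 0.00416), with means of 10.99, 8.922 and 12.2, and was the 1 gene of the 9 for which iPS lay between the other lines by more than the spread of its arrays.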

How the results depend on the processing

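Against 54 higher and 48 lower genes, the counts were 16 and 8 without the detection filter (2844 at an unadjusted limma p under 0.05), 26 and 18 with the iPS and ES arrays alone, and 80 and 77 with an intensity trend and robust prior. Leaving out 1 array gave 9 to 135 higher and 5 to 95 lower genes. With the replicate number as a block the counts were 136 and 136, all 102 called genes among them. Same-numbered arrays deviated together over genes at r = 0.323 for iPS and ES, 0.298 for iPS and low iPS and 0.183 for low iPS and ES, but with 2 numbers the samples share only a number, and the pairing is not taken from the design. The other backgrounds, normalisations, probe rules and filter gave 46 to 67 and 46 to 63, and the authors' values 46 and 40 probes. The chromosome 6 median ranged from -0.398 to -0.206 when 1 array was left out. For chromosome 8 it was -0.236 without background correction and -0.423 with median scaling, which moved the median of all genes to -0.089, and leaving out 1 array gave -0.360 to -0.243. Of the named genes none reversed. Depth in reads does not apply, and genes near background have only bounds.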
